A study of Mus musculus with 12 samples.

Results

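The Hedgehog pathway genes were read in mIMCD3 cells, a mouse line from the inner medullary collecting duct, as wild-type cells and as 2 derived lines that lack Pkd1 or Pkd2. The members were fixed by name as Ihh, Ptch1, Smo, Hhip, Gpr161, Sufu, Gli1, Gli2 and Gli3, and all 9 were found by Ensembl identifier among the 47642 genes of the deposited table. Each genotype had 4 RNA-seq libraries, labelled wild-type, Pkd1-/- and Pkd2-/-, each from its own dish of cells harvested 4 days past full confluency. The labels give the Pkd1-/- alleles as deletions of 44909 and 44798 bases on chromosome 17, and the Pkd2-/- allele as a deletion of 12598 bases on chromosome 5. Each mutant was 1 line, so the tests below cover the spread between dishes and not the spread between independently made lines. The parental line comes from mice that carried a viral T antigen transgene, and all 3 groups share that origin.

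In the Hedgehog pathway a secreted ligand (Sonic, Indian or Desert hedgehog) binds the receptor Ptch1, which otherwise holds the membrane protein Smo inactive. In vertebrates Smo acts in the primary cilium, where it changes the processing of the Gli transcription factors. Gli2 is known mainly as an activator, Gli3 mainly as the source of a repressor, and Gli1, Ptch1 and Hhip are themselves targets of active Gli factors. In the kidney the ligands are best known from the tubule epithelium and the response from the stroma around it.

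The values are normalized counts, that is reads per gene divided by a factor for the library and rounded. The 12 libraries summed to between 25966273 and 28027792 normalized counts, and 1 read was worth about 0.886 to 1.128 of them. A difference is called where the adjusted p of limma's moderated test on log2(normalized count + 1) is under 0.05, with 4 libraries against 4 throughout, and fold changes are on that scale unless a ratio of means is named. Both comparisons with wild-type cells use the same 4 wild-type libraries. Pkd1 read 682, 688, 883 and 876 normalized counts in the wild-type libraries and 40, 49, 48 and 30 in the Pkd1-/- libraries. Pkd2 read 3855 to 4135 in the Pkd2-/- libraries, where its row still counts exons outside the deleted stretch and so does not check that label. Of 11 markers of collecting duct and tubule epithelium, 9 had reads in at least 1 library and the summed level was 63345 to 71278 in wild-type cells, 64565 to 66258 in Pkd1-/- cells and 69159 to 72435 in Pkd2-/- libraries, whereas the water channel genes Aqp2 and Aqp4 were at 0 in all 12. Stromal markers, 7 genes of the cell type that usually responds to Hedgehog ligand, summed to 137 to 170, 83 to 161 and 35 to 121 normalized counts, endothelial markers (3 genes) to at most 9, and leukocyte markers (3 genes) to 47 to 73. None of the 7 stromal markers was at 0 in all 12 libraries, but Pdgfra and Lum read at most 2 and 1 normalized counts in any library. Acta2 (means of 119.5, 82.5 and 21) and Dcn (25.75, 20 and 16) made up most of the stromal sums in wild-type and Pkd1-/- cells. Cd68 made up most of the leukocyte sums. The 4 intercalated cell markers summed to 29 to 82, 437 to 547 and 3 to 5 normalized counts. Gli1, Cdon, Boc, Osr1 and Ccnd2 below share this order in their group means, and so do Hhat, Gas1, Mycn, Bcl2, Kif7, Iqce, Prkaca and others. The share of all tested genes with this order was not counted. Atp6v1b1 made up most of the intercalated sums in wild-type and Pkd1-/- cells, and Foxi1, the factor that defines intercalated cells, was at 0 in all 12 libraries. Whether the stromal or intercalated sums have a part in any result below was not tested.

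The 250 bases before the RefSeq start sites of Ptch1, Gli2 and Gli3, 3 members that were called below and 2 of which are closely related factors, are shown for their sequence context (GRCm38.p6, from RefSeq, 5′ to 3′ on the gene's strand). Capitals mark each GGGCGG or CCGCCC, the letters of a GC box on either strand, and none of the 3 windows overlaps an exon of the GENCODE annotation. The windows of Ptch1 and Gli3 lie inside the spans of these genes in that annotation, where transcription starts as far out as 63573598 and 15463235.
Ptch1, chr13:63565736-63565985, minus strand: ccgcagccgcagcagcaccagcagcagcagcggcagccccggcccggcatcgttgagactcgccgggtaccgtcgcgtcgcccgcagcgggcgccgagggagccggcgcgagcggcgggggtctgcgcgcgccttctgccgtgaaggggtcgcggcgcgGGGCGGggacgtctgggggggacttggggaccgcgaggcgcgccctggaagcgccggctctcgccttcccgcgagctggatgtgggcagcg
Gli2, chr1:119053620-119053869, minus strand: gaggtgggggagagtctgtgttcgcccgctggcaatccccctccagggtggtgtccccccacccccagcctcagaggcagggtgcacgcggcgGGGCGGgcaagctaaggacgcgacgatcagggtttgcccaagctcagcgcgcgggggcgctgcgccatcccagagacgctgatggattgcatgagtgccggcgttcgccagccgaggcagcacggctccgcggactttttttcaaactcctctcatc
Gli3, chr13:15463473-15463722, plus strand: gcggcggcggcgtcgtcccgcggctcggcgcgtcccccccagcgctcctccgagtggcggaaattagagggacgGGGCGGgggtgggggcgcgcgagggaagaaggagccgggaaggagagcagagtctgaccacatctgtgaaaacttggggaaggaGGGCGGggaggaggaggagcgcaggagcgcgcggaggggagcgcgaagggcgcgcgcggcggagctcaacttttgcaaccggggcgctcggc
These 3 windows hold 41, 22 and 34 CpG pairs, against a median of 6.00 over 32851 RefSeq windows of the same length, and 32.7% of those windows hold at least 1 GC box. The 9-letter Gli consensus GACCACCCA, searched on both strands, was not present in the windows of the 8 members found in the table, neither exactly nor with 1 mismatch. Over all windows 0.225% held an exact match and 5.79% a match with up to 1 mismatch, so its absence from a single window is the usual case. These letters were searched only in this short stretch, and nothing follows from it about binding. The window of Gpr161 stood apart from those of the other members with 1 CpG pair and a GC content of 42.4%, or 5 CpG pairs and 46.8% for its second start.

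Among the ligand and its inhibitor, very little RNA was found. Ihh (chr1:74945315-74951672), Indian hedgehog, gave 2, 3, 1 and 2 normalized counts in wild-type cells, 2, 4, 2 and 2 in Pkd1-/- cells and 1, 2, 0 and 2 in Pkd2-/- libraries. All 12 values lay at or near the level of 3 reads per library taken as the floor, and no comparison was called (adjusted p = 0.787, 0.442 and 0.234 for Pkd1-/- against wild-type, Pkd2-/- against wild-type and Pkd2-/- against Pkd1-/-). Hhip (chr8:79965851-80058006), which binds ligand at the cell surface and is a Gli target, had no read in any library. A gene at 0 in an estimated 23188147 to 30337229 reads per library may still lie below 3 reads per library.

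Ptch1 (chr13:63508328-63573598), the ligand receptor and a Gli target, was lower in Pkd1-/- cells. In these bulk libraries less RNA per cell and fewer cells with the RNA cannot be told apart. It read 772, 649, 711 and 834 normalized counts in wild-type cells, 506, 558, 530 and 527 in Pkd1-/- cells and 807, 965, 755 and 973 in Pkd2-/- libraries. Every Pkd1-/- value lay below every wild-type value and every Pkd2-/- value, whereas the Pkd2-/- and wild-type ranges overlapped. The mean was 741.5 ± 79.5 in wild-type cells, 530.2 ± 21.4 in Pkd1-/- cells and 875 ± 111 in Pkd2-/- cells (SD, n = 4). The log2 fold change of Ptch1 was -0.48 (SE 0.09, adjusted p = 0.000376) in Pkd1-/- against wild-type and 0.71 (SE 0.09, adjusted p = 1.74e-06) in Pkd2-/- against Pkd1-/- cells. The rise in Pkd2-/- against wild-type, 0.24 (SE 0.09, adjusted p = 0.0378), was weak. An exact permutation test gave p = 0.143 for it, and the limma call was lost without wild-type replicate 2 (adjusted p = 0.140), wild-type replicate 3 (0.0909), Pkd2-/- replicate 2 (0.131) or Pkd2-/- replicate 4 (0.121).

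Smo (chr6:29735503-29761365), the signal transducer that Ptch1 restrains, was lower in Pkd2-/- cells. Its normalized counts were 3972, 4074, 4268 and 4739 in wild-type cells, 3595, 3891, 3903 and 4190 in Pkd1-/- cells and 3322, 3129, 3242 and 3227 in Pkd2-/- libraries. All 4 Pkd2-/- values fell below all 8 others. The means were 4263 ± 340, 3895 ± 243 and 3230 ± 79.2 (SD, n = 4), and the log2 fold change was -0.40 (SE 0.06, adjusted p = 1.29e-05) against wild-type and -0.27 (SE 0.06, adjusted p = 0.000648) against Pkd1-/- cells. For Pkd1-/- against wild-type it was -0.13 with a 95% interval from -0.25 to -0.01 and an adjusted p of 0.104, with overlapping values. The ratio of the Smo level to the Ptch1 level, each per kilobase of exon, separated the 3 genotypes without overlap. Smo stood at 14.6 ± 1.23 times the level of Ptch1 in wild-type (13.0 to 15.8), 18.5 ± 1.09 times in Pkd1-/- (17.6 to 20.1) and 9.44 ± 1.36 times in Pkd2-/- libraries (8.18 to 10.8; SD, n = 4). This ratio combines the changes of the 2 genes given above and was 1 of several ratios computed, not all of which separated the groups. For Smo to Sufu the wild-type (2.40 to 2.73) and Pkd1-/- (2.16 to 2.42) ranges overlapped.

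Gpr161 (chr1:165295789-165326745), a ciliary receptor that raises cyclic AMP and so favours the Gli3 repressor, was higher in Pkd2-/- cells. The libraries read 1215, 1219, 1266 and 1361 normalized counts in wild-type cells, 1144, 1361, 1286 and 1298 in Pkd1-/- cells and 1774, 1923, 1635 and 2066 in Pkd2-/- cells. The Pkd2-/- values did not overlap either other group, while those of wild-type and Pkd1-/- cells lay over each other. The log2 fold change was 0.54 (SE 0.07, adjusted p = 4.46e-06) against wild-type, which is a 1.46-fold change, and 0.54 (adjusted p = 3.98e-06) against Pkd1-/- cells. In Pkd1-/- against wild-type cells it was 0.01, with a 95% interval from -0.14 to 0.16 (adjusted p = 0.965).

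Sufu (chr19:46396896-46488804), which binds Gli proteins and holds them back, was called in no comparison. It gave 2264, 2246, 2252 and 2373 normalized counts in wild-type cells, 2276, 2416, 2424 and 2368 in Pkd1-/- cells and 2361, 2355, 2231 and 2486 in Pkd2-/- libraries, and the 3 ranges overlapped. The 95% interval of the log2 fold change ran from -0.04 to 0.15 in Pkd1-/- cells and from -0.05 to 0.14 in Pkd2-/- against wild-type (adjusted p = 0.443 and 0.471), and from -0.11 to 0.09 between the mutants (adjusted p = 0.905).

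Of the transcription factors, Gli1 was barely detected, Gli2 was detected in wild-type libraries and not in mutant ones, and Gli3 was well expressed. Gli3 (chr13:15463235-15730026) read 1175, 934, 1069 and 1332 normalized counts in wild-type cells, 1103, 1135, 1153 and 1240 in Pkd1-/- cells and 1632, 1891, 1654 and 2086 in Pkd2-/- libraries. The 4 Pkd2-/- values lay above all 8 others, and the Pkd1-/- values fell within the wild-type range. Its log2 fold change was 0.69 (SE 0.09, adjusted p = 6.23e-06) in Pkd2-/- against wild-type, a 1.62-fold rise, 0.64 (SE 0.09, adjusted p = 1.17e-05) against Pkd1-/- cells, and 0.05 (95% interval -0.15 to 0.24, adjusted p = 0.762) in Pkd1-/- against wild-type. Against Sufu, on the scale per kilobase, Gli3 stood at 0.395 ± 0.0499 in wild-type cells, 0.392 ± 0.0195 in Pkd1-/- cells and 0.617 ± 0.0526 in Pkd2-/- libraries (SD, n = 4). The antisense gene Gm6556 shares 188 exon bases with Gli3, 1.96% of its exons, and its 23 to 50 normalized counts are far below those of Gli3.

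Gli2 (chr1:118834132-119053619) read 8, 10, 22 and 19 normalized counts in the wild-type libraries and 0 in all 4 Pkd1-/- and all 4 Pkd2-/- libraries. The wild-type values are low and differ among themselves, and each exceeds the floor of 3 reads per library. Set against that floor, the mean of 14.75 ± 6.80 (SD, n = 4) makes Gli2 at least 5.01-fold lower in Pkd1-/- cells and at least 5.07-fold lower in Pkd2-/- cells (adjusted p = 2.05e-06 and 9.82e-07). The 58 wild-type reads estimated from the values, against 0, put the upper 95% counting limit of the ratio at 0.0620 and 0.0584, and these limits cover counting error only. The fitted log2 fold change, -3.87 in both mutants, is no bound, since it ran from -4.81 with a pseudocount of 0.5 to -1.91 with 5, and it was called with each. With both mutants at 0 the 2 lines cannot be compared for this gene. In wild-type cells Gli3 was 34.8 to 105 times as abundant as Gli2 per kilobase.

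Gli1 (chr10:127329882-127341974), the usual read-out of an active pathway, gave 0, 2, 0 and 2 normalized counts in wild-type cells, 12, 4, 9 and 4 in Pkd1-/- cells and 2, 1, 0 and 0 in Pkd2-/- libraries. The wild-type and Pkd2-/- values were all under the floor, and the 4 Pkd1-/- values lay above it and above all 8 others. The log2 fold change in Pkd1-/- was 2.12 (SE 0.56, adjusted p = 0.00785) against wild-type, and Pkd2-/- against Pkd1-/- gave -2.27 (SE 0.56, adjusted p = 0.00255). With a pseudocount of 0.5 or 5 the value against wild-type was 2.65 or 0.99, and that between the mutants -2.83 or -1.05, each still called. An estimated 30 reads in Pkd1-/- against 4 in wild-type libraries give a ratio of 7.08, with a 95% counting interval from 2.49 to 27.7. No difference was called between Pkd2-/- and wild-type cells (3 against 4 reads, adjusted p = 0.869). Arhgap9, a gene of the opposite strand, shares 62 exon bases with Gli1 and showed the same order of groups, with 3, 3, 1 and 4 normalized counts in wild-type cells, 17, 10, 12 and 10 in Pkd1-/- cells and 4, 2, 0 and 1 in Pkd2-/- libraries. The strand setting of the counting is not given in the sources used here, so reads of Gli1 and of Arhgap9 or the antisense gene Gm47200, which shares 265 exon bases, cannot be told apart in those stretches.

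**Figure D1:**
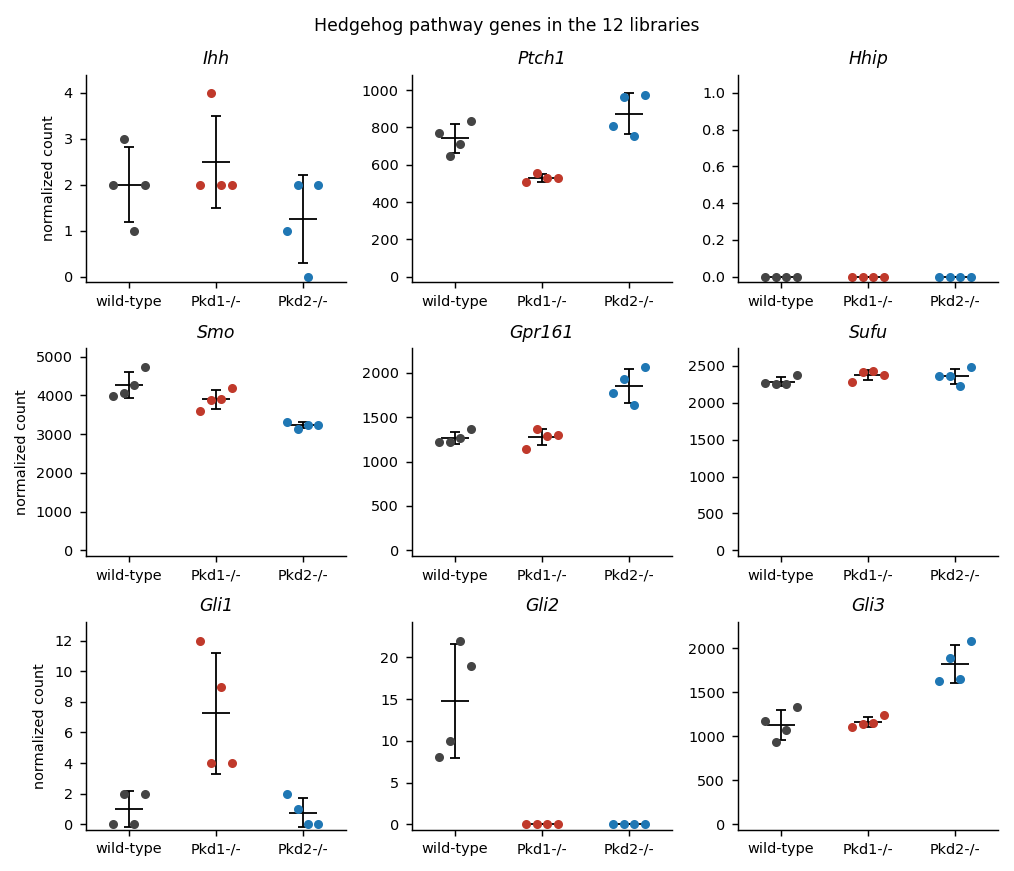
Normalized counts (y axis, linear) of the 9 Hedgehog pathway genes in wild-type, Pkd1-/- and Pkd2-/- cells, with 1 point per library, replicates 1 to 4 from left to right, and a bar and whiskers for mean and SD (n = 4). Gli2 has points above 0 in wild-type cells only, Gpr161 and Gli3 stand above both other genotypes in Pkd2-/- cells, and Hhip is at 0 in all 12 libraries.

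Together, 8 of the 9 members passed the filter of an average of 1 or more normalized counts, Hhip being the exception. The comparison of Pkd1-/- with wild-type called 3 of these 8, Gli1 higher and Ptch1 and Gli2 lower, while 27.1% of all 18552 tested genes were called (13.6% higher and 13.5% lower). With a change of at least 2-fold 2 members were called, Gli1 and Gli2, against 6.24% of all genes. In Pkd2-/- against wild-type 5 of 8 were called, with Ptch1, Gpr161 and Gli3 higher and Smo and Gli2 lower, against 42.3% of all genes (20.0% higher, 22.3% lower), and 1 with a 2-fold change, Gli2, against 9.62%. Between the mutants 5 of 8 were called, with Ptch1, Gpr161 and Gli3 higher in Pkd2-/- and Smo and Gli1 lower, against 46.3% of all genes (21.9% higher, 24.3% lower), and 1 with a 2-fold change, Gli1, against 11.8%. With 8 members nothing particular to the pathway is read from these counts, and the median log2 fold changes of the 8, 0.03, -0.05 and 0.00, are near those of all tested genes, 0.01, -0.01 and -0.01. For the calls at 4 against 4 the smallest p of the exact two-sided permutation test is 0.0286, which was reached by each called member other than Ptch1 in Pkd2-/- against wild-type.

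**Figure D2:**
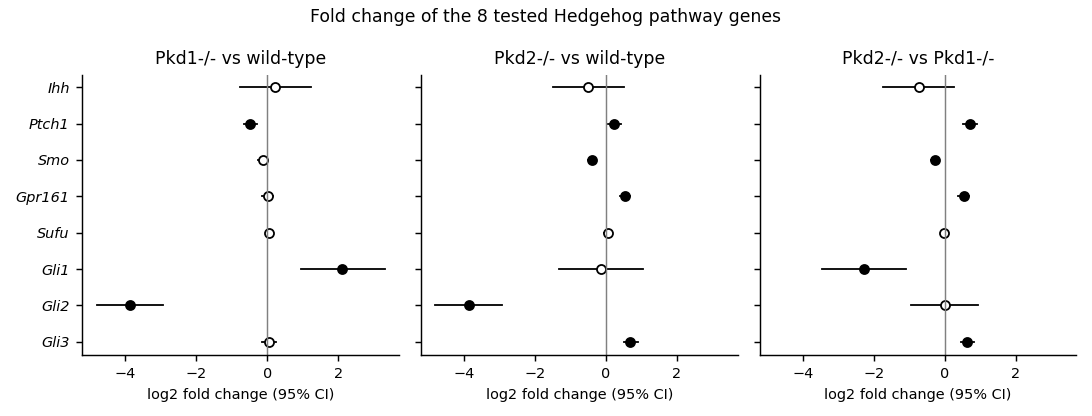
Log2 fold change (x axis, on log2 of normalized count + 1) with its 95% confidence interval for the 8 tested members in Pkd1-/- against wild-type, Pkd2-/- against wild-type and Pkd2-/- against Pkd1-/- cells, with filled points at an adjusted p under 0.05. Gli2 lies at -3.87 in both comparisons with wild-type and Gli1 at 2.12 in Pkd1-/- cells, values that depend on the pseudocount (-4.81 to -1.91 and 0.99 to 2.65), and the intervals of Gpr161 and Gli3 lie above 0 in both comparisons of Pkd2-/- cells.

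Ordered by level per kilobase of exon, the wild-type libraries had Smo at 758 ± 60.5 normalized counts per kilobase, Sufu at 297 ± 7.80, Gpr161 at 182 ± 9.75, Gli3 at 118 ± 17.5, Ptch1 at 52.3 ± 5.61 and Gli2 at 2.15 ± 0.990 (SD, n = 4), with no overlap between neighbours down to Gli2 and Ihh. Ihh at 0.656 ± 0.268 and Gli1 at 0.200 ± 0.231 overlapped. The Pkd1-/- order of the first 5 was the same (693, 308, 183, 121 and 37.4), again with no overlap, and Gli1 (1.45) overlapped Ihh (0.820) below them. In Pkd2-/- cells the first 5 also kept this order (575, 307, 266, 189 and 61.7), but Gpr161 had risen to where its highest library (297) overlapped the lowest of Sufu (290).

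The wider pathway was followed in lists that contain some of the members. In the list of ligands and ligand release, which holds Ihh, 4 of 9 genes were tested, and Shh, Scube1 and Scube2 had no read in any library. In Pkd1-/- cells 2 of the 4 were called higher and 1 lower, in Pkd2-/- cells 0 higher and 1 lower against wild-type, and 1 higher and 1 lower between the mutants, with medians of 0.23, -0.24 and -0.44. Of all tested genes 13.6% were called higher and 13.5% lower in the first comparison, 20.0% and 22.3% in the second and 21.9% and 24.3% between the mutants, and with 4 genes nothing is read from the counts. Scube3, a secreted protein that aids ligand release, read 87 to 118 in wild-type cells, 52 to 70 in Pkd1-/- cells and 97 to 126 in Pkd2-/- libraries (log2 fold change -0.80 in Pkd1-/- against wild-type, adjusted p = 0.000327).

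The call in Pkd2-/- cells was Hhat (chr1:192496711-192771223), the acyltransferase that attaches palmitate to Hedgehog ligands. It read 149, 161, 173 and 235 normalized counts in wild-type cells, 278, 267, 263 and 264 in Pkd1-/- and 0 in each of the 4 Pkd2-/- libraries. Against the floor of 3 reads per library Hhat was at least 61.7-fold lower in Pkd2-/- than in wild-type cells and at least 92.2-fold lower than in Pkd1-/- cells (adjusted p = 4.63e-16 and 1.06e-16). Its log2 fold change in Pkd1-/- against wild-type was 0.60 (adjusted p = 0.0220), and this call was lost without any 1 of 7 of the 8 libraries (adjusted p up to 0.0804, without wild-type replicate 1), and held without wild-type replicate 4. The neighbouring gene Sertad4 read 1010, 898, 1005 and 1125 in wild-type cells, 1417, 1492, 1445 and 1528 in Pkd1-/- cells and 2, 2, 0 and 2 in Pkd2-/- libraries. Gm15867, beside Sertad4 on the other strand, read 9 to 23 in wild-type cells, 13 to 22 in Pkd1-/- and 0 in all 4 Pkd2-/- libraries. The next genes averaging 10 or more normalized counts, Gm10516 and Rcor3 on one side (starts 634.3 and 633.2 kb from that of Hhat) and Diexf on the other (359.0 kb), had Pkd2-/- means of 29, 959.2 and 918.2 beside wild-type means of 30.25, 807 and 868.8. Of the 32 such genes within 2 Mb, 3 adjacent ones were therefore at or near 0 in the Pkd2-/- line, which was 1 line, and what lies behind this stretch was not tested.

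**Figure D3:**
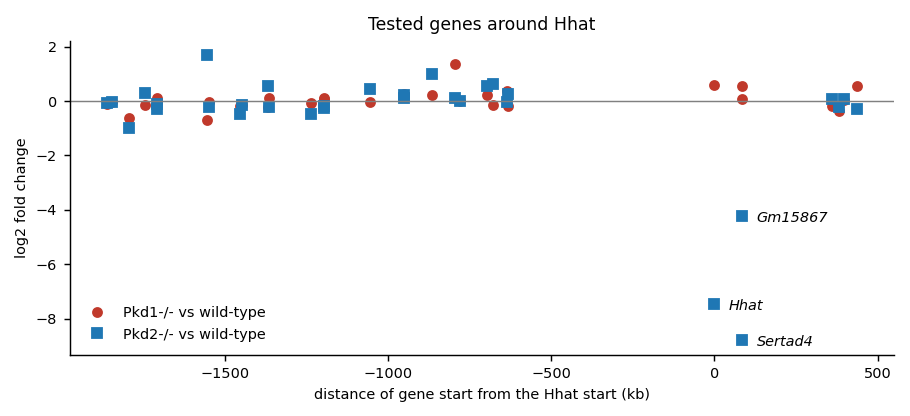
Log2 fold change (y axis) of the 32 genes averaging 10 or more normalized counts within 2 Mb of Hhat, by distance of the gene start from that of Hhat in kb (x axis), in Pkd1-/- (circles) and Pkd2-/- (squares) against wild-type cells. Hhat, Sertad4 and Gm15867 lie below -4 in Pkd2-/- cells, while Gm10516, Rcor3 and Diexf, the nearest plotted genes to either side, lie near 0.

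Among receptors and co-receptors, a list that holds Ptch1, Smo and Hhip, the mutants differed from wild-type in opposite directions at Cdon, Boc and Lrp2. Of 8 tested genes, 3 were called higher in Pkd1-/- against wild-type and 2 lower (median -0.12), in Pkd2-/- against wild-type 2 higher and 4 lower (median -0.58), and in Pkd2-/- against Pkd1-/- 2 higher and 5 lower (median -0.69). Called in either direction were thus 5, 6 and 7 of the 8, against 27.1%, 42.3% and 46.3% of all tested genes. The list is short and was chosen with earlier results of these data known, so nothing is read from these counts. Cdon, a co-receptor that binds ligand with Ptch1, read 1571, 1424, 1473 and 1819 in wild-type cells, 2912, 3184, 3051 and 3411 in Pkd1-/- cells and 850, 879, 734 and 905 in Pkd2-/- libraries, 3 ranges that did not overlap. Its log2 fold change was 1.00 (SE 0.08, adjusted p = 1.09e-08) in Pkd1-/- cells and -0.90 (SE 0.08, adjusted p = 2.22e-08) in Pkd2-/- against wild-type, and -1.90 (adjusted p = 3.42e-13) between the mutants.
Boc, its close relative, was much less abundant per kilobase of exon (1.57 against 204 for Cdon in wild-type cells) and had the same order, with 5 to 9 normalized counts in wild-type cells, 11 to 22 in Pkd1-/- cells and 1 to 3 in Pkd2-/- libraries (log2 fold change 1.17 and -1.58, adjusted p = 0.0202 and 0.00146). The Pkd1-/- call of Boc was lost without wild-type replicate 1 (adjusted p = 0.0589), Pkd1-/- replicate 2 (0.0575) or Pkd1-/- replicate 4 (0.0667). Gas1, the third co-receptor of this kind and the most abundant gene of the list per kilobase (2095 in wild-type), rose in Pkd1-/- cells from 6205 to 9480 normalized counts (log2 fold change 0.61, adjusted p = 4.99e-07), and in Pkd2-/- cells its log2 fold change was -0.13 (adjusted p = 0.111).
Lrp2, megalin, an endocytic receptor that also takes up Sonic hedgehog, went the other way. It read 483, 474, 520 and 555 normalized counts in wild-type cells, 45, 52, 25 and 63 in Pkd1-/- cells and 821, 962, 738 and 1217 in Pkd2-/- libraries, with log2 fold changes of -3.50 (adjusted p = 1.56e-10) and 0.85 (adjusted p = 0.00189) against wild-type. Gpc3, a glypican that binds ligand, had at most 7 normalized counts in any library and was lower in Pkd2-/- cells (2 against 18 estimated reads in wild-type, ratio 0.0988, 95% counting interval 0.0111 to 0.413). Its call against Pkd1-/- cells (adjusted p = 0.0181) was lost without Pkd1-/- replicate 2 (0.0769).

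**Figure D4:**
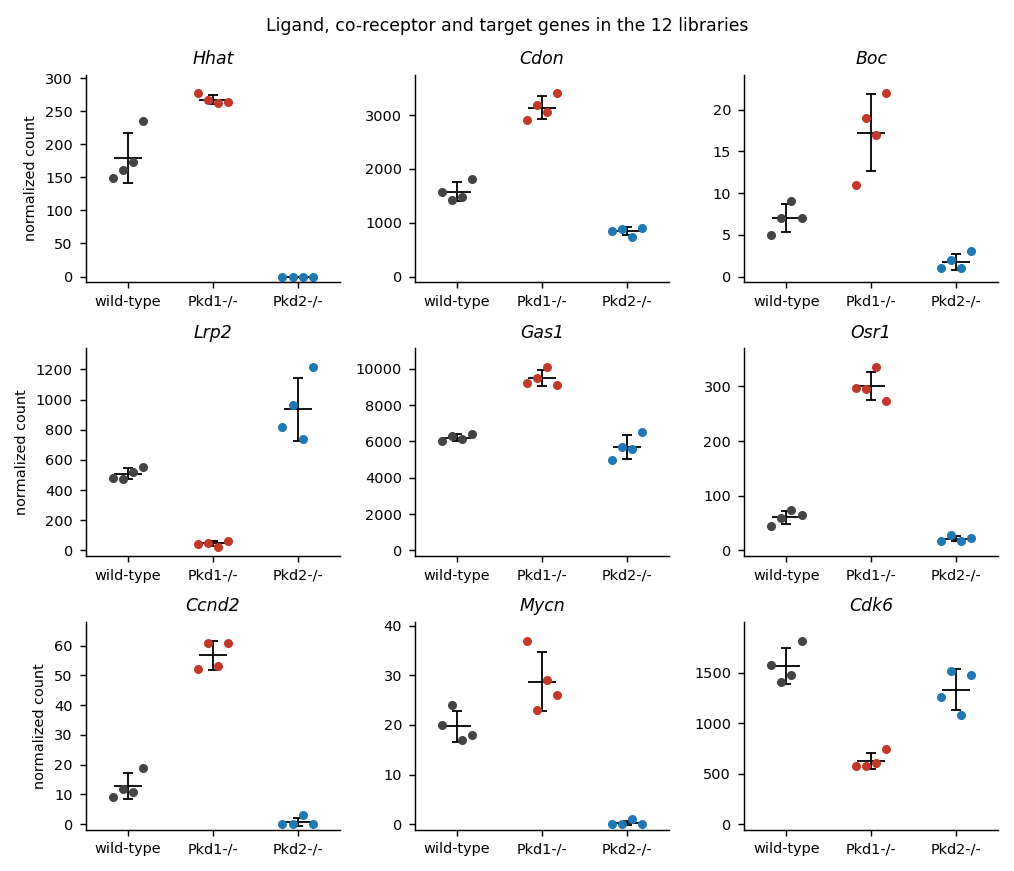
Normalized counts (y axis, linear) of 9 ligand, co-receptor and target genes in wild-type, Pkd1-/- and Pkd2-/- cells, with 1 point per library, replicates 1 to 4 from left to right, and a bar and whiskers for mean and SD (n = 4). Cdon, Boc, Osr1 and Ccnd2 are ordered Pkd1-/-, wild-type, Pkd2-/- from high to low, Lrp2 in the opposite order, and Hhat is at 0 in Pkd2-/- cells.

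The 17 genes that handle Smo and Gpr161 at the cilium were all tested. In Pkd1-/- against wild-type 4 were called higher and 5 lower (median -0.05), and in Pkd2-/- against wild-type 3 higher and 10 lower (median -0.20), but with a correction for GC content and length, which put the median of all tested genes at 0.10 in that comparison, the latter was 5 higher and 6 lower. Between the mutants 5 were called higher in Pkd2-/- and 6 lower (median -0.03), or 7 and 5 with the correction. The background over all tested genes was 13.6% higher and 13.5% lower, 20.0% and 22.3%, and 21.9% and 24.3% in these 3 comparisons. This list too was chosen with earlier results of these data known, and nothing is read from its counts. Evc, a ciliary partner of Smo, had the largest change in Pkd2-/- cells among those averaging 10 or more normalized counts, from 1752 to 919.5 normalized counts (log2 fold change -0.93, adjusted p = 1.11e-10), and its partner Evc2 fell in both mutants (-0.49 and -0.20, adjusted p = 1.82e-07 and 0.00163). Kif7, the kinesin that organizes Gli proteins at the ciliary tip, was higher in Pkd1-/- (0.46, adjusted p = 0.00302) and lower in Pkd2-/- cells (-0.49, adjusted p = 0.000932), and Iqce, which tethers Evc proteins, did likewise (0.64 and -0.30, adjusted p = 3.75e-07 and 0.000926). The 3 called higher in Pkd2-/- against wild-type were Grk2 (0.46, adjusted p = 7.14e-08), Inpp5e (0.43, adjusted p = 0.000198) and Arl13b (0.21, adjusted p = 0.00647). The only 2-fold changes of this list were at Arrb1, a beta-arrestin, with 16, 8, 15 and 13 normalized counts in wild-type cells, 0, 0, 0 and 1 in Pkd1-/- cells and 3, 5, 8 and 4 in Pkd2-/- libraries. An estimated 1 read against 51 gives a Pkd1-/- to wild-type ratio of 0.0185 (95% counting interval 0.000460 to 0.108, adjusted p = 2.72e-06). Its Pkd2-/- call (adjusted p = 0.0209) was lost without wild-type replicate 1 (0.0596), wild-type replicate 3 (0.0575), Pkd2-/- replicate 1 (0.0683) or Pkd2-/- replicate 4 (0.0539).

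Regulators of Gli processing, 20 genes with Sufu and Gpr161 among them, changed little in size. In Pkd1-/- against wild-type 4 were called higher and 0 lower (median 0.05), and none by 2-fold or more in any comparison. In Pkd2-/- against wild-type 6 were called higher and 3 lower (median 0.01), 12 and 2 after the correction for GC content and length, and 5 and 5 after upper quartile rescaling. Between the mutants 15 of the 20 were called, 7 higher in Pkd2-/- and 8 lower (median 0.00), or 10 and 4 after the correction and 5 and 8 after the rescaling. Btrc and Cul3, parts of ubiquitin ligases with log2 fold changes of -0.12 and -0.15 between the mutants, took the other sign after the correction and were then not called. Called in either direction were 4, 9 and 15 of 20 in the 3 comparisons, against 27.1%, 42.3% and 46.3% of all tested genes. As with the other lists, chosen with earlier results of these data known, nothing is read from these counts. Itch, a ubiquitin ligase, rose from 2848 to 4325 normalized counts in Pkd2-/- cells (log2 fold change 0.60, adjusted p = 1.22e-08) and stood at 2805 in Pkd1-/- cells. Prkaca, a catalytic subunit of the kinase that starts Gli processing, was higher in Pkd1-/- (0.18, adjusted p = 0.00268) and lower in Pkd2-/- cells (-0.33, adjusted p = 4.32e-06). Prkacb, another catalytic subunit in the list, was not called against wild-type (-0.12 and 0.01, adjusted p = 0.0708 and 0.920). Between the mutants Prkacb was at 0.13 (adjusted p = 0.0347), a call lost in 5 of 8 fits that left out 1 library.

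Of 20 genes known as Gli targets in other tissues, Gli1, Ptch1 and Hhip included, 13 were tested. In Pkd1-/- against wild-type 3 were called higher and 2 lower (median 0.13), 4 of the 5 by 2-fold or more, and in Pkd2-/- against wild-type 3 higher and 4 lower (median -0.17), 4 of the 7 by 2-fold or more. Between the mutants 4 were called higher in Pkd2-/- and 5 lower (median 0.32), 7 of the 9 by 2-fold or more. Of all tested genes 27.1%, 42.3% and 46.3% were called in these comparisons, and 6.24%, 9.62% and 11.8% by 2-fold or more. With 13 genes of a list chosen with earlier results of these data known, nothing is read from the counts. Osr1, a transcription factor of the early kidney, read 44, 59, 74 and 64 normalized counts in wild-type cells, 298, 295, 336 and 274 in Pkd1-/- cells and 18, 28, 18 and 22 in Pkd2-/- libraries (log2 fold change 2.32 and -1.44, adjusted p = 8.77e-09 and 2.21e-06). Ccnd2, cyclin D2, had the same order, with 9, 12, 11 and 19, then 52, 61, 53 and 61, then 0, 0, 3 and 0 normalized counts.
The log2 fold change of Ccnd2 was 2.12 in Pkd1-/- (adjusted p = 0.000661), and 3 against 49 estimated reads give a Pkd2-/- to wild-type ratio of 0.0545 (95% counting interval 0.0109 to 0.169, adjusted p = 3.57e-06). Mycn, a growth-promoting transcription factor, was at 17 to 24 in wild-type cells, 23 to 37 in Pkd1-/- cells and 0, 0, 1 and 0 in Pkd2-/- libraries (1 against 75 estimated reads, ratio 0.0119, 95% counting interval 0.000296 to 0.0681, adjusted p = 7.43e-09). Bcl2, an inhibitor of cell death, fell from 134.5 to 46.75 normalized counts in Pkd2-/- cells (log2 fold change -1.56, adjusted p = 7.45e-06). Called higher in Pkd2-/- against wild-type, besides Ptch1, were Jag2 (44.75 to 70.5, log2 fold change 0.64, adjusted p = 0.00431) and Ccnd1, cyclin D1. Ccnd1 rose from 38 to 70.5 (log2 fold change 0.89, adjusted p = 0.0154), a call lost without wild-type replicate 3 (0.0626).
Cdk6, a cell cycle kinase, fell in Pkd1-/- cells from 1569 to 626.5 (log2 fold change -1.32, adjusted p = 1.61e-08), and in Pkd2-/- cells its log2 fold change was -0.24 (adjusted p = 0.0778). Prdm1, at no more than 8 normalized counts in any library, passed only between the mutants (log2 fold change 1.48, adjusted p = 0.0319), a call lost without Pkd1-/- replicate 1 (0.112), Pkd1-/- replicate 2 (0.0641), Pkd1-/- replicate 3 (0.0632), Pkd2-/- replicate 1 (0.0925) or Pkd2-/- replicate 4 (0.0814).

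**Figure D5:**
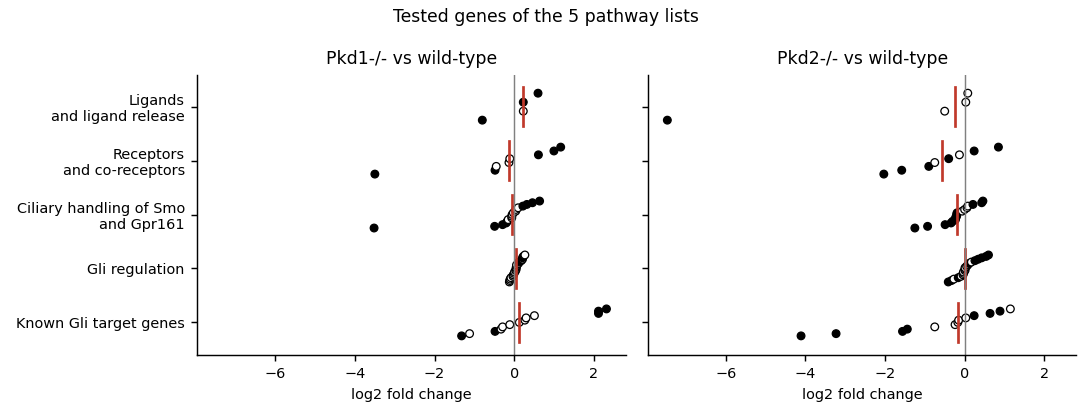
Log2 fold change (x axis, on log2 of normalized count + 1) of the tested genes of the 5 pathway lists in Pkd1-/- and Pkd2-/- against wild-type cells, 1 point per gene, filled at an adjusted p under 0.05, with a red line at each list's median. The regulators of Gli processing lie close to 0 in both panels, and the other 4 lists hold the genes that moved by 2-fold or more, among them Hhat at -7.47 in Pkd2-/- cells and Lrp2 at -3.50 in Pkd1-/- cells.

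The genes most like Gli2 and Gli1 were sought over the 12 libraries among 13703 genes averaging 10 or more normalized counts. Nearest to Gli2 were Hs6st2 (Pearson's r = 0.984), with means of 448.2 in wild-type and 0 in both mutants, and Pgbd1 (r = 0.980), with means of 39.5, 0 and 0.25. For Gli1, whose values are near the floor, Nrm (r = 0.926, means 1836, 2085 and 1768) and Ybx1 (r = 0.911) came first. All of these share the libraries and their normalization with the member they resemble, so the values are a description.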

How the data were processed

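RNA-seq libraries of mIMCD3 cells (4 per genotype) were processed by the authors with Trim Galore, HISAT2 on mm10, HTSeq counting per Ensembl gene and DESeq2, per the labels and methods. The methods name mm9 for the reference annotation of a splicing analysis, which is not used here. The values the authors deposited are a score in the sense that they are read counts divided by a size factor and rounded to whole numbers, so no count model was fitted. The reads behind them, and what 1 read is worth, were estimated from which whole numbers each library skips or doubles. Where 1 read is worth less than 1, neighbouring read counts round to the same value, so reads were not recovered for all genes.

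Gene identifiers were matched to GENCODE M21 (GRCm38): 47223 of 47642 matched. Genes with a mean of at least 1 over 12 libraries (18552) were tested with limma 3.58.1 in R 4.3.3 (lmFit, eBayes with trend) on log2(normalized count + 1), with genotype as the factor and p-values adjusted by Benjamini-Hochberg per comparison over all tested genes. Residual spread came from all 12 libraries. The test was run on simulated data first. Exact permutation tests (two-sided) used scipy 1.17.1. Counting intervals are exact binomial ones (95%), and the floor is 3 reads per library, averaged over a group's libraries. Levels between genes are per kilobase of merged exons.

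The members and lists were chosen with earlier results of these data known. Named are the 9 members, Pkd1 and Pkd2, and every gene of the 5 pathway lists called with at least a 2-fold change. The 2 genes most like a member so called are named too. Other list genes (Scube3, Gas1, Evc, Evc2, Kif7, Iqce, Grk2, Inpp5e, Arl13b, Itch, Prkaca, Prkacb, Btrc, Cul3, Ccnd1, Jag2) were chosen after their values were seen. So were the cell type markers given with values and the neighbours of Hhat. Of 18 pairs of libraries of 1 genotype none were identical, and they differed by 4.20 to 28.3 times the variance of counting. Alternatives were other pseudocounts (0.5 and 5), no filter, a mean of at least 10, the replicate block, only the 2 genotypes compared, upper quartile rescaling, leaving out each library, and, added after seeing the data, a correction for GC content and exon length.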

Additional observations from a re-analysis of the deposited data

Results flagged for a closer look

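The difference between the effects of the mutants, tested as Pkd2-/- against Pkd1-/- cells, passed the threshold for 5 members. It was 0.71 on the log2 scale for Ptch1, 0.54 for Gpr161 and 0.64 for Gli3, and it was -0.27 for Smo and -2.27 for Gli1, with the values of every library given above. Ptch1 lay below wild-type in all 4 Pkd1-/- libraries, and Gpr161 and Gli3 lay above wild-type in all 4 Pkd2-/- libraries.

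In 2 groups of 4, a library stood apart from the other 3 by more than Dixon's 95% limit of 0.829. Ihh read 4 normalized counts in Pkd1-/- replicate 2 and 2 in the other 3 libraries. Sufu read 2373 in wild-type replicate 4 and 2246 to 2264 in the others. For normally spread values chance flags about 1 in 20 such groups. That rate does not apply to Ihh, whose other 3 values are tied whole numbers near the floor.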

How the results depend on the processing

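Over the tested members, 353 values of alternative fits had the direction and the call of the reported fit, 14 had the other sign, 6 lost a call and 2 gained one. All values with the other sign were near 0 and uncalled: leaving out a library moved Gpr161 in Pkd1-/- against wild-type over -0.03 to 0.06, Gli3 over -0.04 to 0.13, Gli1 in Pkd2-/- against wild-type over -0.46 to 0.12 and Sufu between the mutants over -0.03 to 0.02; upper quartile rescaling put Sufu in Pkd2-/- against wild-type at -0.01, and the GC and length correction put it at 0.07 between the mutants. The call of Ptch1 in Pkd2-/- against wild-type was also lost with only the 2 genotypes compared (0.24, adjusted p = 0.0875) and with upper quartile rescaling (0.18, adjusted p = 0.106). The GC and length correction gained calls for Smo in Pkd1-/- (-0.14, adjusted p = 0.0217) and Sufu in Pkd2-/- against wild-type (0.12, adjusted p = 0.0166). With the filter at 10 normalized counts on average, where Ihh, Gli1 and Gli2 are not tested, 1 member was called in Pkd1-/- against wild-type and 0 by 2-fold in each of the 3 comparisons. With a pseudocount of 5, 1 member was called by 2-fold in Pkd1-/- against wild-type, as Gli1 gave 0.99. Of all called genes, 50.1%, 47.4% and 47.4% were higher, against 55.9%, 64.0% and 60.4% with the GC and length correction and 53.2%, 39.2% and 39.1% with upper quartile rescaling. The medians of all tested genes, 0.01, -0.01 and -0.01 as reported, were 0.02, 0.10 and 0.08 with the correction, so the 0.12 of Sufu above stands beside a median of 0.10, and 0.02, -0.06 and -0.07 with the rescaling. The replicate numbers gave at most a weak pairing of the libraries (correlations of deviations -0.07 to 0.20, 2 of 12 pairs over 0.1, own number best in 5 of 12). Both pairs over 0.1 were of replicate 4, at 0.20 for Pkd2-/- with wild-type and 0.17 for Pkd2-/- with Pkd1-/- cells. Whether the libraries of replicate 4 share an effect was not tested. With the replicate block 3, 5 and 5 members were called, as reported, and 5322, 8048 and 8782 genes, against 5020, 7852 and 8588 without it. Depth limits Ihh, Hhip, Gli1 and Gli2, which lie near or below 3 reads per library in at least 1 genotype.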

Other observations

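Whether the well-detected members scatter independently within a genotype was not tested. Replicate 4 was the highest wild-type library for Ptch1, Smo, Gpr161, Sufu and Gli3, and the highest Pkd2-/- library for all of these but Smo. Among Pkd1-/- libraries the highest was replicate 2 for Ptch1 and Gpr161, replicate 4 for Smo and Gli3, and replicate 3 for Sufu. The median coefficient of variation over genes averaging 10 or more was 7.45% in wild-type cells, 6.60% in Pkd1-/- cells and 7.95% in Pkd2-/- libraries.

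Medians over the chromosomal surroundings of the members were small, but such a median cannot show a loss of a few adjacent genes. Around Hhat it was -0.02 in Pkd2-/- against wild-type over 40 genes, although Hhat, Sertad4 and Gm15867 were at or near 0 there. Over the genes averaging 10 or more that start within 5 Mb, the median log2 fold change lay between -0.10 and 0.18 in Pkd1-/- cells and between -0.14 and 0.28 in Pkd2-/- against wild-type for the 9 members. The upper ends belong to the 93 genes around Sufu, a member that itself had log2 fold changes of 0.05 in both.

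Beside the pathway, Atp6v1b1, a proton pump subunit typical of intercalated cells, was at a mean of 57 normalized counts in wild-type cells, 513 in Pkd1-/- cells and 1 in Pkd2-/- libraries (log2 fold change 3.22 and -4.88, adjusted p = 1.87e-07 and 2.67e-10). Gata3, a collecting duct transcription factor, was at 226.8, 48.5 and 354.2 (log2 fold change -2.20 in Pkd1-/- against wild-type, adjusted p = 6.34e-10). The other 8 tested markers of collecting duct and tubule epithelium were not called in that comparison (median of the list -0.03). In Pkd2-/- against wild-type 5 of the 9 tested were called higher and 2 lower (median 0.18). Acta2, of the stromal list, was at 119.5, 82.5 and 21 (log2 fold change -2.45 in Pkd2-/- against wild-type, adjusted p = 1.16e-08). The stromal list did not move one way: of its 5 tested genes 2 were called lower in Pkd2-/- against wild-type, Acta2 and Pdgfrb (2.5 to 0 in the mean, adjusted p = 0.0269), while Col1a1 (means of 4.25 in wild-type and 13.25 in Pkd2-/- libraries, adjusted p = 0.189) and Col1a2 (1.5 and 12.75, adjusted p = 0.422) were not called. Of the leukocyte list Ptprc was called in Pkd1-/- cells, at means of 3 in wild-type and 0.25 in Pkd1-/- cells (adjusted p = 0.0451), all near the floor.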
